A study of Mus musculus with 25 samples.

Results

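The genes described here are 6 members of the aryl hydrocarbon receptor (AHR) pathway, measured by RNA sequencing of mouse esophagus. They are Ahr, the receptor, Arnt, its DNA-binding partner, Ahrr, its repressor, and Cyp1a1, Cyp1b1 and Tiparp, which are known target genes. The members were taken by gene symbol from 2 tables of normalised values, one for pups and one for adults. All 6 were among the 19942 genes of the adult table. The pup table of 21106 genes gave 5 of the 6, and Cyp1a1 was not analysed in pups.

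The study compared a cancer-derived mutation of the transcription factor NRF2, in which the leucine at codon 30 is a phenylalanine (L30F), with loss of KEAP1, the adaptor protein that marks NRF2 for degradation. The pups, aged 7 to 10 days, comprised 3 libraries of NRF2L30F/L30F::K5Cre, 3 of KEAP1flox/flox::K5Cre and 3 of wild type. The adults, aged 6 to 9 weeks, comprised 4 libraries each of NRF2L30F/+::K5CreERT2, NRF2L30F/L30F::K5CreERT2, KEAP1flox/flox::K5CreERT2 and wild type, and all were taken 1 week after tamoxifen at 100 µg per g body weight. These groups are called L30F heterozygotes, L30F homozygotes, KEAP1-deficient and wild type below. K5Cre places Cre recombinase under the promoter of keratin 5, a keratin of basal squamous cells, and K5CreERT2 is the form that needs tamoxifen. Cre therefore acted on the alleles in squamous cells, whereas the RNA came from esophagus. The labels name no separation of the epithelium from muscle, connective tissue and vessels. The labels do not say whether the wild-type mice carried Cre, or whether the libraries of a group came from separate animals, so p-values measure only the spread between these libraries. In such bulk RNA, fewer cells of a type and less RNA per cell cannot be told apart.

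As background, AHR waits in the cytosol in a complex with the chaperone HSP90 and the co-chaperone p23. Once it binds a ligand, such as a dioxin, a polycyclic hydrocarbon or a tryptophan metabolite, it enters the nucleus, pairs with ARNT and binds xenobiotic response elements, whose core is GCGTG. Its target genes encode enzymes that oxidise such ligands, and also 2 brakes on the receptor, the repressor AHRR and the ADP-ribosyltransferase TIPARP. In stratified squamous epithelia, chiefly human skin, AHR ligands are known to speed terminal differentiation. NRF2 acts on antioxidant response elements, and several detoxifying genes, Nqo1 among them, answer to both factors.

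The promoters of the repressor and the target genes are shown because the letters of the AHR and ARNT core can be looked for in them. Each sequence covers 250 bases before to 50 bases after the annotated transcription start, 5′ to 3′ on the strand of the gene, from RefSeq on build GRCm38.p6, and 5 of the 6 members had one. Capitals mark the core, as GCGTG where it lies on the strand of the gene and as CACGC where it lies on the other strand.
Ahrr: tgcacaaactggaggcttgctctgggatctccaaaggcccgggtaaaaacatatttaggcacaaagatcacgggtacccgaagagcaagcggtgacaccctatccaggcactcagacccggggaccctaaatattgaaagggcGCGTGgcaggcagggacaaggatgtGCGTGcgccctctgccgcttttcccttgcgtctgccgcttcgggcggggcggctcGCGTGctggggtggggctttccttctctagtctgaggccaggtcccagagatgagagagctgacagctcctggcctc
Cyp1a1: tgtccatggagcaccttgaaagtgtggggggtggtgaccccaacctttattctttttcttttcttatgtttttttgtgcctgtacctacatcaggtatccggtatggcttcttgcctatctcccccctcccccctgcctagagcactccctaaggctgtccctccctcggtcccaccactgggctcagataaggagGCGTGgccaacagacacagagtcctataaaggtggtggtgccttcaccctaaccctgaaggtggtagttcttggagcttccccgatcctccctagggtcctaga
Cyp1b1: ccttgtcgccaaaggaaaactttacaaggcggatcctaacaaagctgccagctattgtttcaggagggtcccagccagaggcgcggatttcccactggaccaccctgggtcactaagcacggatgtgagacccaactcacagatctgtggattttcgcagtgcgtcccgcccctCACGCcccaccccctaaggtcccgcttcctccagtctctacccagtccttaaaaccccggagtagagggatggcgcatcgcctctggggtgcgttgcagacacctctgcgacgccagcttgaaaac
Tiparp: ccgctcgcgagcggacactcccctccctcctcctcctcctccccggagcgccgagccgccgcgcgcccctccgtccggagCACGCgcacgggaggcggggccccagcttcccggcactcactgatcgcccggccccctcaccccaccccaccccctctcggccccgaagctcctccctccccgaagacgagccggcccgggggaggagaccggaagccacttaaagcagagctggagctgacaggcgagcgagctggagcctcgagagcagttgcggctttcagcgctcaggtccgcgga
The Ahrr window is chr13:74292282-74292581 on the minus strand, and that of Cyp1a1 is chr9:57697363-57697662 on the plus strand. The Cyp1b1 window is chr17:79715012-79715311 on the minus strand, and that of Tiparp is chr3:65528197-65528496 on the plus strand.

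The Ahrr promoter held 3 cores, which began at positions -107, -82 and -27 from the start. Cyp1a1 had 1 core, at -54. Cyp1b1 and Tiparp each had 1 on the other strand, at -76 in Cyp1b1 and -170 in Tiparp. The Arnt promoter, on chromosome 3, also had 1 core, at -29. Of 32851 promoters of the same length, 32.4% held at least 1 core on either strand, and 3.92% held 3 or more. An antioxidant response element, searched as TGANNNNGC on both strands, was found at 2 places in Ahrr, 2 in Arnt and 1 in Tiparp, against none in Cyp1a1 and Cyp1b1, and 41.3% of all promoters held at least 1. No match of the 2 motifs shared a base with a match of the other. The 5 promoters were 54% to 73.7% G and C, with a median of 52.7% over all promoters. A match is a run of letters and not a measured binding site. Sequence outside these windows was not searched, so the counts do not cover cores farther from the start.

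**Figure D1:**
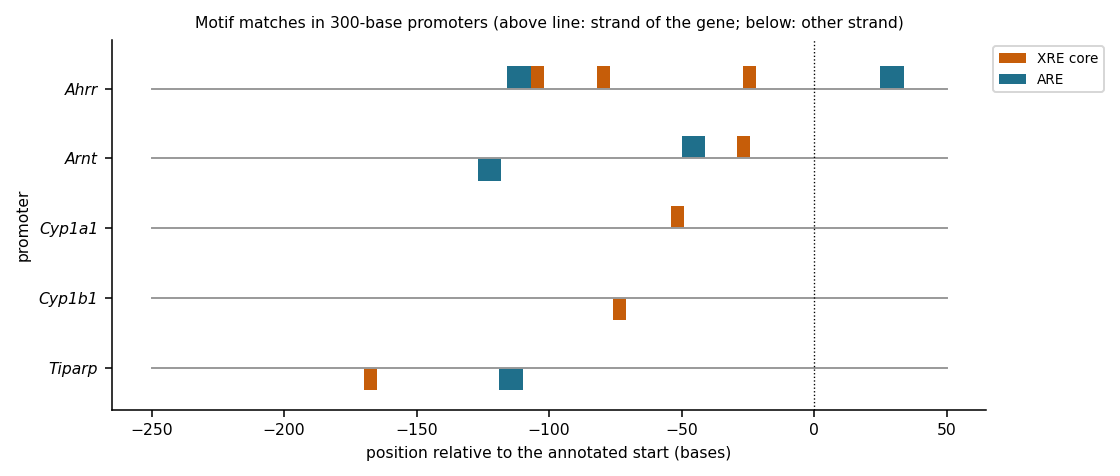
Matches to the xenobiotic response element core (orange) and to TGANNNNGC, a loose form of the antioxidant response element (blue). They are shown in the promoters of the 5 members with a sequence, by distance from the annotated start in bases. Marks above a line lie on the strand of the gene and marks below it on the other strand. Within these windows Ahrr carries 3 cores where the others carry 1.

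The pup libraries held 18.8 to 19.7 M (mega) reads. In adults the depth differed between groups, at 12.8 to 16.9 M reads in L30F heterozygotes, 10.9 to 11.6 M in L30F homozygotes, 22.5 to 31.3 M in KEAP1-deficient mice and 27.5 to 32.3 M in wild type. Keap1 was lower in KEAP1-deficient mice than in wild type, by a log2 change of -0.46 in pups (adjusted p = 0.012) and -0.60 in adults (adjusted p = 8e-06). Nqo1, a standard NRF2 target, was higher in each mutant group, with log2 changes of 7.01 in pup L30F homozygotes, 7.28 in pup KEAP1-deficient mice, 1.95 in adult L30F heterozygotes, 2.51 in adult L30F homozygotes and 2.45 in adult KEAP1-deficient mice. The L30F change itself is not visible in gene totals. Total Nfe2l2, the gene of NRF2, changed by a log2 of -0.67 in adult L30F heterozygotes (adjusted p = 0.0028) and -1.98 in adult homozygotes (adjusted p = 1.2e-08). In adult KEAP1-deficient mice it changed by -0.39 (adjusted p = 0.011). In pups the change was 0.31 in L30F homozygotes (adjusted p = 0.17) and 0.93 in KEAP1-deficient mice (adjusted p = 0.0013). Markers of squamous epithelium, muscle, fibroblasts and leukocytes were detected in every group, and no marker was at 0 in all libraries of a group. One pup L30F homozygote, library 3, stood apart from the other pup libraries in sex-linked genes, with 47281 normalised counts of Xist and 0 of Ddx3y.

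In pups, Tiparp rose 2.01-fold in L30F homozygotes and 1.995-fold in KEAP1-deficient mice. Cyp1b1 rose 3.32-fold in L30F homozygotes. Ahrr fell in KEAP1-deficient pups to 0 to 3 reads a library, against 19 to 28 reads in wild type. In adults, KEAP1-deficient mice had 4.75-fold more Cyp1b1 and 1.33-fold more Tiparp than wild type, while Cyp1a1 fell to 2 to 4 reads a library, against 12 to 68 reads in wild type. Ahr fell to 0.670-fold in adult L30F homozygotes.

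These calls were made with limma on log2(normalised count + 1), fitted over all genes of a table, at an adjusted p under 0.05. In pup L30F homozygotes against wild type 2 of 5 members were called, both higher, where 39.2% of all genes were called, 22% higher and 17.1% lower. In KEAP1-deficient pups 2 of 5 members were called, 1 higher and 1 lower, where 49.5% of all genes were called, 26.3% higher and 23.2% lower. No member of 6 was called in adult L30F heterozygotes, where 9.7% of all genes were called, 4.8% higher and 4.9% lower. Limma gave 1 member, Ahr, at an unadjusted p under 0.05 there, and limma-voom on the recovered reads also called 0. In adult L30F homozygotes 1 of 6 members was called, lower, where 22.3% of all genes were called, 11.8% higher and 10.4% lower. In adult KEAP1-deficient mice 4 of 6 were called, 2 higher and 2 lower, where 46.8% of all genes were called, 24.1% higher and 22.7% lower. With 5 or 6 members, these shares are not far enough from those of all genes to be read as particular to the pathway. The median log2 change of the members was -0.06 in pup L30F homozygotes and -0.04 in KEAP1-deficient pups, against -0.03 over all genes in homozygotes and -0.05 in KEAP1-deficient pups. In adults the median of the members was -0.03 in L30F heterozygotes, -0.20 in L30F homozygotes and -0.18 in KEAP1-deficient mice, while over all genes it was 0.01 in heterozygotes, -0.01 in homozygotes and -0.01 in KEAP1-deficient mice.

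**Figure D2:**
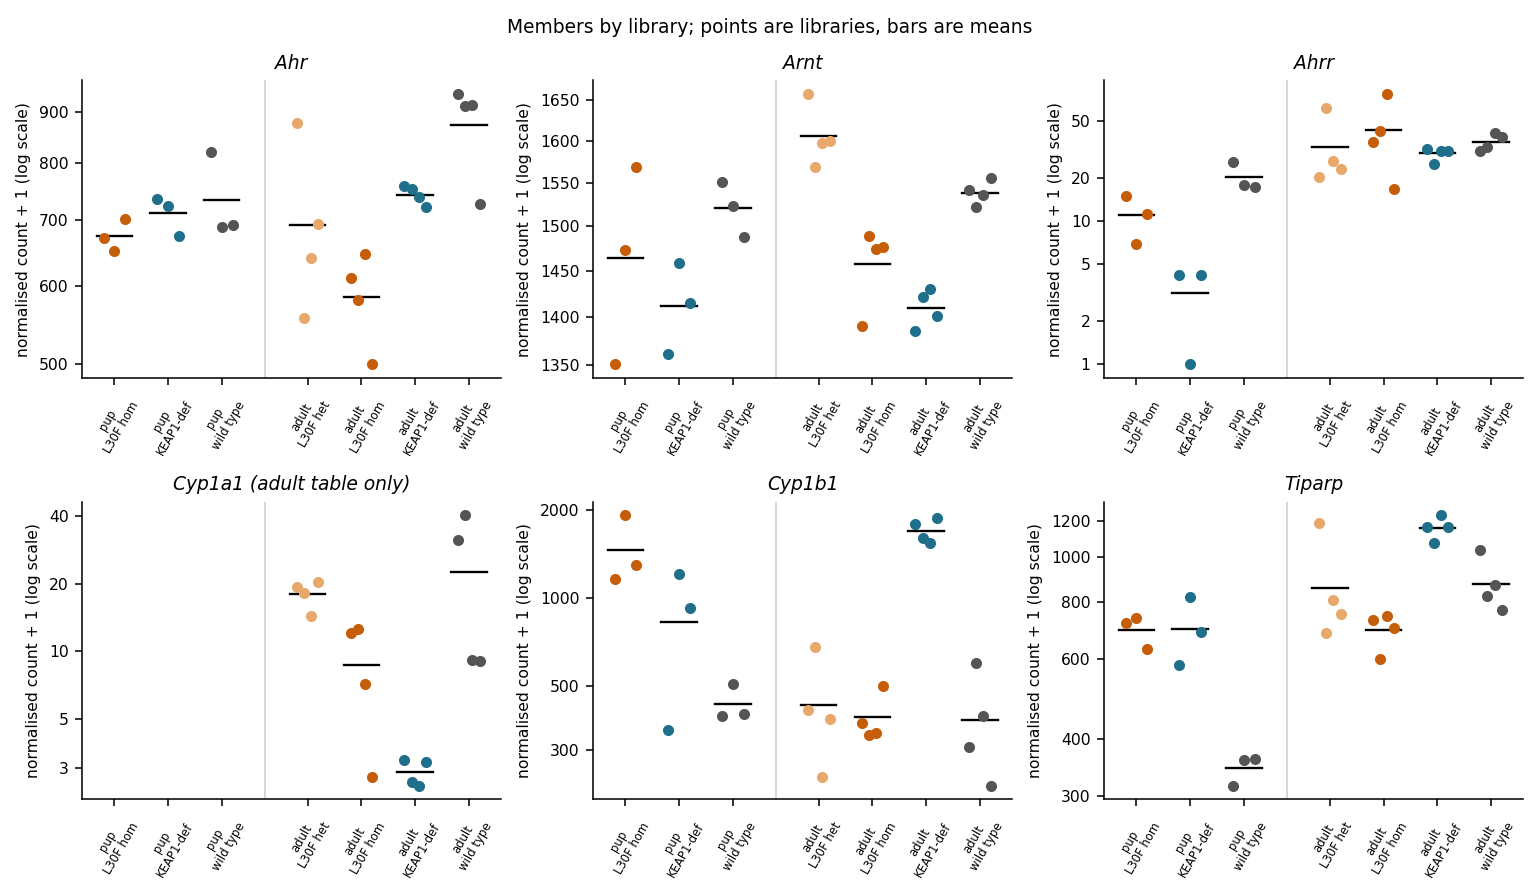
Normalised counts plus 1 of the 6 members in every library, on a log axis, by group; points are libraries and bars are group means. Cyp1b1 stands at 1545 to 1874 in adult KEAP1-deficient mice, above the other adult groups, and Ahrr in pups is lowest in KEAP1-deficient mice.

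Ahr, the ligand-binding receptor, overlapped between the 3 pup groups. It had 669, 649.6 and 701 normalised counts in L30F homozygotes, 734, 722 and 673 in KEAP1-deficient pups, and 819.9, 688 and 691 in wild type. Wild-type library 1 was the highest, and no difference passed the test. The log2 change was -0.12 ± 0.09 (SE) in L30F homozygotes (adjusted p = 0.32) and -0.04 ± 0.09 in KEAP1-deficient pups (adjusted p = 0.72).

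In adults Ahr was lowest in L30F homozygotes. Adult L30F heterozygotes had 877, 556, 639 and 692 normalised counts, L30F homozygotes 611, 580.4, 645 and 499, KEAP1-deficient mice 757, 752, 737 and 719.8, and wild type 938, 912, 913 and 725. All 4 homozygous libraries lay below all 4 wild-type libraries, while the other mutant groups overlapped the wild type, whose library 4 was the lowest of its group. By mean the order was wild type (872 ± 98.7), KEAP1-deficient (741 ± 16.7), heterozygotes (691 ± 136) and homozygotes (584 ± 62.5, SD, n = 4 each), and neighbours in that order overlapped. The log2 change in homozygotes was -0.58 (SE 0.12, 95% interval -0.84 to -0.32, adjusted p = 0.0034). Heterozygotes gave -0.35 (adjusted p = 0.082) and KEAP1-deficient mice -0.23 (adjusted p = 0.14), and neither was called. Without wild-type library 4 both were, at -0.43 (adjusted p = 0.031) in heterozygotes and -0.31 (adjusted p = 0.048) in KEAP1-deficient mice. The heterozygote difference was also called without heterozygote library 1 (-0.47, adjusted p = 0.017) and with all libraries thinned to equal depth (-0.43, adjusted p = 0.035). The KEAP1-deficient difference was also called when only those 2 groups were fitted (adjusted p = 0.043).

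Arnt, which pairs with AHR and with several other factors of its family, overlapped between most groups in pups. Pup L30F homozygotes had 1349.9, 1473 and 1568 normalised counts, KEAP1-deficient pups 1361, 1458 and 1415, and wild type 1549.9, 1522 and 1486. The KEAP1-deficient pups lay just below the wild type without overlap, at a log2 change of -0.11 (adjusted p = 0.24). The homozygotes overlapped both groups, at -0.06 (adjusted p = 0.56). Neither difference was called.

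Adult L30F heterozygotes had 1657, 1568, 1596 and 1599 normalised counts of Arnt, homozygotes 1389.8, 1487, 1473 and 1475, KEAP1-deficient mice 1384, 1421, 1429.7 and 1400.3, and wild type 1540.4, 1520.4, 1534 and 1555. The heterozygotes stood above the wild type, and the other 2 mutant groups below it, with no overlap. The means were 1605 ± 37.5 in heterozygotes, 1456 ± 44.8 in homozygotes, 1409 ± 20.503 in KEAP1-deficient mice and 1537 ± 14.2 in wild type (SD, n = 4 each), and of neighbours in order of level only homozygotes and KEAP1-deficient mice overlapped. The difference from wild type was 0.06 in heterozygotes (adjusted p = 0.44) and -0.08 in homozygotes (adjusted p = 0.24) on the log2 scale, and was not called. In KEAP1-deficient mice it was -0.13 (SE 0.05, adjusted p = 0.036). That call was lost without any one of the 8 libraries compared, with adjusted p-values of 0.054 to 0.087, and when Ddx3y was added as a covariate (adjusted p = 0.064).

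Ahrr, the repressor that competes with AHR for ARNT, was a low-count gene and was lowest in KEAP1-deficient pups. L30F homozygotes had 13.9, 5.91 and 10.2 normalised counts (14, 6 and 10 reads), KEAP1-deficient pups 3.20, 0 and 3.24 (3, 0 and 3 reads), and wild type 24.9, 16.9 and 16.3 (28, 19 and 19 reads). The 3 groups did not overlap. The log2 change in KEAP1-deficient pups was -2.94 (SE 0.60, 95% interval -4.28 to -1.60, adjusted p = 0.0024), and it was -0.93 (95% interval -2.27 to 0.41, adjusted p = 0.25) in L30F homozygotes. Its size depends on the offset added before the logarithm and ranged over the settings tried from -4.21 to -1.79, called each time. As pooled reads, 6 in KEAP1-deficient pups against 66 in wild type gave a ratio of 0.113, with an exact 95% interval of 0.0400 to 0.259. The 30 reads of L30F homozygotes gave a ratio of 0.519 (0.325 to 0.810). These intervals cover counting error only.

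In adults no difference in Ahrr was called. Heterozygotes had 19.5, 60.2, 25.4 and 22.2 normalised counts, homozygotes 34.7, 41.5, 76.4 and 15.7, KEAP1-deficient mice 31.0, 24.0, 30.0 and 29.8, and wild type 29.8, 31.9, 40.4 and 37.6. All groups overlapped, and both L30F groups spread more widely than the other 2. The log2 change from wild type was -0.27 in heterozygotes (adjusted p = 0.71), 0.07 in homozygotes (adjusted p = 0.92) and -0.27 in KEAP1-deficient mice (adjusted p = 0.60). Per library 9 to 65 reads lay behind these values.

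Cyp1a1, the cytochrome P450 that is the classical readout of AHR activity, was scarce in adult esophagus and scarcest in KEAP1-deficient mice. L30F heterozygotes had 18.3, 17.2, 13.3 and 19.3 normalised counts (15, 12, 11 and 13 reads), homozygotes 11.04, 11.6, 6.11 and 1.74 (7, 7, 4 and 1 reads), KEAP1-deficient mice 2.25, 1.60, 1.502 and 2.18 (4, 2, 2 and 3 reads), and wild type 30.5, 39.4, 8.09 and 8.07 (45, 68, 13 and 12 reads). The wild type fell into 2 high and 2 low libraries, and all of them lay above all KEAP1-deficient libraries. The log2 change in KEAP1-deficient mice was -2.65 (SE 0.53, 95% interval -3.77 to -1.53, adjusted p = 0.00061). It was called in 16 of 16 fits that left out 1 library, at -2.98 to -2.26, and in 10 of 11 other settings, over which it ranged from -3.11 to -1.73. The pooled reads, 11 against 138, gave a ratio of 0.0876 (exact 95% interval 0.0427 to 0.162, counting error only, which leaves out the spread between libraries).

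The heterozygotes did not differ detectably from wild type in Cyp1a1, with a log2 change of -0.01 and a 95% interval of -1.13 to 1.11 (adjusted p = 0.99). The homozygotes gave -1.29 (95% interval -2.40 to -0.17, adjusted p = 0.091) and overlapped the wild type. That difference was called without wild-type library 4 (-1.62, adjusted p = 0.044). By mean the order was wild type (21.5 ± 15.9), heterozygotes (17.0 ± 2.603), homozygotes (7.63 ± 4.63) and KEAP1-deficient mice (1.88 ± 0.389), and only the step from heterozygotes to homozygotes was free of overlap.

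Cyp1b1, a related P450 that oxidises polycyclic hydrocarbons and steroid hormones and is widely expressed in connective tissue cells, was called higher in L30F homozygotes in pups and in KEAP1-deficient mice in adults. In pups, L30F homozygotes had 1159.6, 1923 and 1296 normalised counts, KEAP1-deficient mice 351, 1205 and 921, and wild type 391, 505 and 398. All homozygous libraries lay above the wild type, while the KEAP1-deficient libraries ranged from below the wild type to over its highest value. The log2 change was 1.73 in homozygotes (SE 0.44, 95% interval 0.71 to 2.76, adjusted p = 0.017) and 0.77 in KEAP1-deficient pups (95% interval -0.26 to 1.79, adjusted p = 0.19). The homozygote call was lost without wild-type library 3 (1.68, adjusted p = 0.054) or homozygote library 2 (1.51, adjusted p = 0.058). In KEAP1-deficient pups the difference was called without KEAP1-deficient library 1 (1.30, adjusted p = 0.0019).

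In adults, L30F heterozygotes had 412, 679, 241 and 382 normalised counts of Cyp1b1, homozygotes 371, 338, 344 and 499, KEAP1-deficient mice 1795, 1601, 1545 and 1874, and wild type 306, 597, 393 and 225. The KEAP1-deficient libraries stood alone, and the L30F groups overlapped the wild type. The means were 429 ± 183 in heterozygotes, 388 ± 75.2 in homozygotes, 1704 ± 156 in KEAP1-deficient mice and 380.2 ± 160.0 in wild type (SD, n = 4 each). The log2 change in KEAP1-deficient mice was 2.25 (SE 0.29, 95% interval 1.63 to 2.87, adjusted p = 1.5e-05), and 2.03 to 2.50 without any 1 library. It was 0.17 in heterozygotes (adjusted p = 0.77) and 0.10 in homozygotes (95% interval -0.52 to 0.72, adjusted p = 0.83).

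Tiparp, which modifies AHR with ADP-ribose and lowers its activity, was about doubled in both pup mutants. L30F homozygotes had 718, 734 and 629 normalised counts, KEAP1-deficient pups 581, 817 and 687, and wild type 315, 359 and 361. Every mutant library lay above every wild-type library, and the mutants overlapped each other. The log2 change was 1.00 in each (SE 0.13), with an adjusted p of 0.00016 in homozygotes and 0.00011 in KEAP1-deficient pups, and both were called in all leave-one-out fits and settings tried.

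In adults, L30F heterozygotes had 1188, 682, 807 and 751 normalised counts of Tiparp, homozygotes 727, 599, 744 and 701, KEAP1-deficient mice 1161, 1074, 1235 and 1164, and wild type 1036, 823, 869 and 767. The KEAP1-deficient libraries lay above and the homozygous libraries below the wild type, with no overlap. The log2 change in KEAP1-deficient mice was 0.41 (SE 0.14, 95% interval 0.12 to 0.71, adjusted p = 0.023). That call was lost without wild-type library 2 (adjusted p = 0.057) or 4 (0.067), or without KEAP1-deficient library 3 (0.059). Homozygotes gave -0.33 (95% interval -0.63 to -0.03, adjusted p = 0.10), a difference that was called without heterozygote library 1 (adjusted p = 0.020), and heterozygotes gave -0.05 (adjusted p = 0.86).

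**Figure D3:**
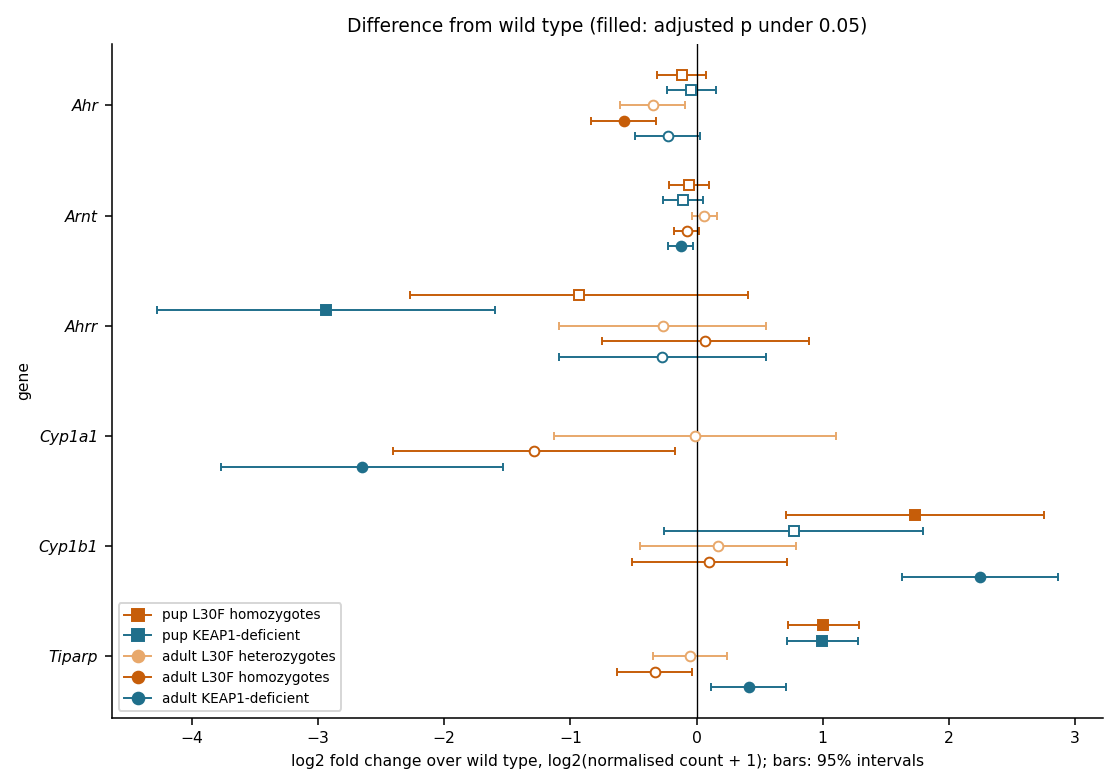
Log2 fold changes of the 6 members over wild type in the 5 mutant groups, with 95% intervals; filled points have an adjusted p under 0.05. Far from 0 lie Ahrr in KEAP1-deficient pups (-2.94) and, in adult KEAP1-deficient mice, Cyp1a1 (-2.65) and Cyp1b1 (2.25).

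The mutant groups were also compared with each other. Between pup L30F homozygotes and KEAP1-deficient pups no member of 5 was called, where 4.17% of all genes were. Ahrr was 2.01 higher on the log2 scale in homozygotes (95% interval 0.67 to 3.35, adjusted p = 0.085), the 1 member at an unadjusted p under 0.05 in limma, and limma-voom called 0. Tiparp differed by 0.01 (95% interval -0.27 to 0.29), and Cyp1b1 by 0.96 (-0.06 to 1.99).

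Between adult L30F homozygotes and heterozygotes no member of 6 was called, where 16.4% of all genes were, and limma-voom also called 0. Arnt (log2 difference -0.14, adjusted p = 0.051) and Cyp1a1 (-1.28, adjusted p = 0.11) were the 2 members at an unadjusted p under 0.05, and neither overlapped between the groups.

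Adult L30F homozygotes and KEAP1-deficient mice differed in 3 of 6 members, where 26.4% of all genes were called. In homozygotes Cyp1b1 was lower by a log2 difference of -2.15 (adjusted p = 8.5e-05), Tiparp by -0.74 (adjusted p = 0.0011) and Ahr by -0.35 (adjusted p = 0.043). The Ahr call was lost in 11 of the 16 fits that left out 1 library, with adjusted p-values up to 0.13. Cyp1a1 differed by 1.37 (adjusted p = 0.068) and was called without homozygote library 4, whose value rests on 1 read (1.84, adjusted p = 0.013).

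Adult L30F heterozygotes and KEAP1-deficient mice differed in 4 of 6 members, where 44.8% of all genes were called. In heterozygotes Cyp1a1 was higher by 2.64 (adjusted p = 0.00068) and Arnt by 0.19 (adjusted p = 0.0037), while Cyp1b1 was lower, at -2.08 (adjusted p = 3.4e-05), and so was Tiparp, at -0.47 (adjusted p = 0.012). These comparisons share their KEAP1-deficient libraries.

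Whether a genotype acted differently at the 2 ages was tested as the adult effect minus the pup effect, each against its own wild type. For L30F homozygosity 3 of 5 members were called, where 33.5% of all genes were. Tiparp gave -1.33 (SE 0.19, adjusted p = 3.2e-06), Cyp1b1 -1.63 (SE 0.53, adjusted p = 0.027) and Ahr -0.46 (SE 0.15, adjusted p = 0.019) on the log2 scale, all towards a lower effect in adults. For KEAP1 deficiency 3 of 5 were called as well, where 47.1% of all genes were. Ahrr gave 2.67 (SE 0.71, adjusted p = 0.0047), Cyp1b1 1.48 (SE 0.53, adjusted p = 0.032) and Tiparp -0.58 (SE 0.19, adjusted p = 0.013). Cyp1b1 thus differed between the ages in opposite directions in the 2 genotypes. No such difference was called for Arnt (-0.02 in both, adjusted p = 0.87 in both).

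Both Cyp1b1 differences were close to the threshold. In homozygotes the call was lost without any one of pup wild-type libraries 1 and 3, pup homozygote libraries 2 and 3 and adult wild-type library 2, with adjusted p-values of 0.057 to 0.087. In KEAP1-deficient mice it was lost without any one of the 3 pup wild-type libraries or adult wild-type library 4, at 0.055 to 0.089. The Ahr difference was lost without adult homozygote library 4 (-0.39, adjusted p = 0.054). Age, the constitutive or inducible Cre and the separate normalisation of the 2 tables cannot be told apart in these differences.

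Divided by the length of the longest coding transcript of GENCODE M21, the members ranked differently by age and genotype. In adult KEAP1-deficient mice the level was 332 normalised counts per kb for Cyp1b1, 326 for Arnt, 276 for Tiparp, 134 for Ahr, 6.04 for Ahrr and 0.699 for Cyp1a1. In adult wild type it was 355 for Arnt, 208 for Tiparp, 157 for Ahr, 74.1 for Cyp1b1, 7.98 for Cyp1a1 and 7.35 for Ahrr. In KEAP1-deficient adults the Cyp1b1 libraries spread to both sides of Arnt, so the 2 genes had no order there, while in adult wild type Cyp1b1 lay below Arnt, Tiparp and Ahr. Pup wild type had 351 per kb for Arnt, 132 for Ahr, 84.1 for Cyp1b1, 82.4 for Tiparp and 4.07 for Ahrr.

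The cell type markers moved with several of these results, and their part in them was not tested. In pups, 8 fibroblast markers summed to 164280 to 230412 counts in L30F homozygotes and 100116 to 197335 in KEAP1-deficient mice. In wild type they summed to 467029 to 505542 counts. In both mutants 7 of 8 markers were called lower, where 17.1% of all genes were in homozygotes and 23.2% in KEAP1-deficient pups. The mean of the fibroblast sum was 0.409 of wild type in L30F homozygotes and 0.315 in KEAP1-deficient pups. Per 1000 counts of the fibroblast sum, Cyp1b1 had 5.03 to 9.71 in L30F homozygotes and 1.78 to 12.0 in KEAP1-deficient pups. Wild type had 0.835 to 0.999. This ratio also rises where only the fibroblast sum is lower. KEAP1-deficient library 1 had 351 counts of Cyp1b1, against 391 to 505 in wild type, and yet a ratio of 1.78. In KEAP1-deficient pups, where Ahrr fell, smooth muscle markers were 0.502 and red blood cell markers 0.0933 of wild type. There 3 of 7 smooth muscle markers and 5 of 5 red blood cell markers were called lower. In KEAP1-deficient adults, where Ahrr was not called, the smooth muscle sum was 0.591 and the red blood cell sum 0.106 of wild type. The sum of 7 suprabasal squamous markers, which include keratins 4 and 13, was 1.90 times wild type in homozygotes and 2.65 times in KEAP1-deficient pups, where Tiparp was higher in both. In each mutant 5 of these markers were called higher and 1 lower. Of all genes 22% were called higher in homozygotes and 26.3% in KEAP1-deficient pups. The median log2 change of the markers was 2.03 in homozygotes and 2.49 in KEAP1-deficient pups.

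In adults the KEAP1-deficient esophagus differed most in its markers. Of all genes 24.1% were called higher there and 22.7% lower. The fibroblast sum was 301315 to 393850 in KEAP1-deficient mice and 132666 to 161891 in wild type, and 5 of 8 markers were called higher and 1 lower. Per 1000 counts of that sum Cyp1b1 had 4.06 to 5.96 in KEAP1-deficient mice and 1.63 to 3.69 in wild type. Leukocyte markers summed to 32724 to 39559 in KEAP1-deficient mice and 2631 to 4888 in wild type, with 6 of 8 called higher. Their median log2 change was 1.47, and a sum weighs its most abundant markers most. Suprabasal squamous markers summed to 119906 to 171000 in KEAP1-deficient mice and 932498 to 1299650 in wild type, with 5 of 7 called lower. In the same libraries Cyp1a1 was lowest, while Tiparp was called higher (log2 change 0.41). Tiparp was also called higher in both pup mutants, where the suprabasal sum was higher. Striated muscle markers summed to 431734 to 657151 in KEAP1-deficient mice and 1218340 to 1414440 in wild type, with 9 of 11 called lower and 1 higher. With the mean of the muscle markers as a covariate the calls of Cyp1a1 (log2 change -2.54, adjusted p = 0.30), Tiparp (0.41, adjusted p = 0.56) and Arnt (-0.07, adjusted p = 0.77) were lost, and Cyp1b1 was still called (adjusted p = 0.036). As the muscle sums of these groups do not overlap, muscle content and genotype cannot be told apart in that fit.

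**Figure D4:**
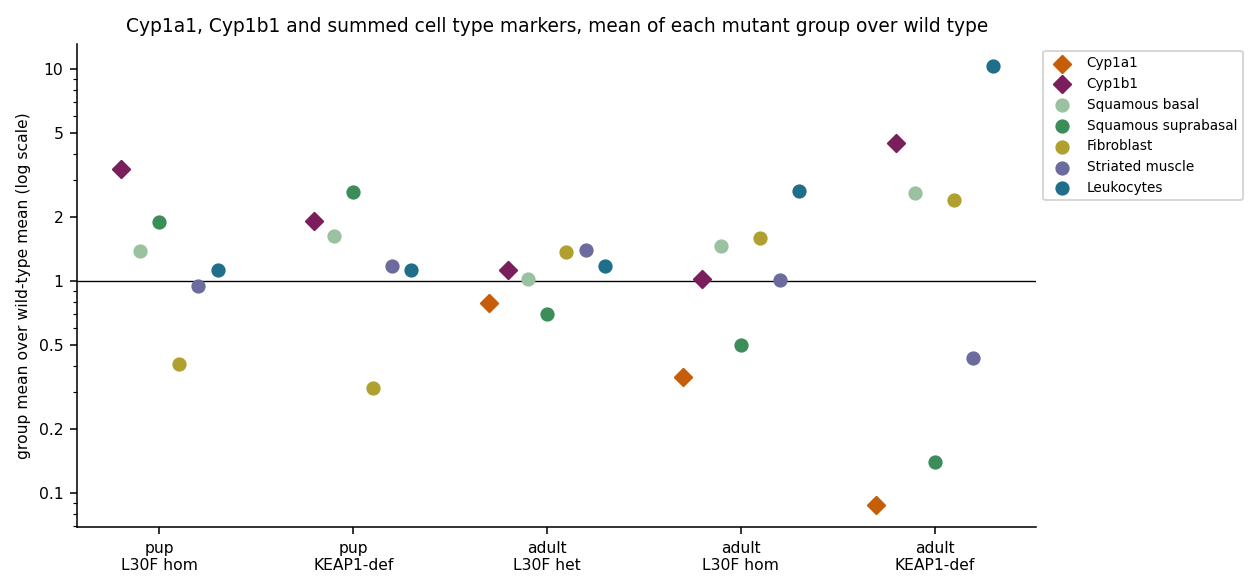
Group means over the wild-type mean, on a log axis, of Cyp1a1 and Cyp1b1 (diamonds) and of the summed markers of 5 cell types (circles) in each mutant group. In adult KEAP1-deficient mice leukocyte markers reach 10.4 and fibroblast markers 2.43, while suprabasal squamous markers stand at 0.140 and striated muscle markers at 0.435.

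Adult L30F mice differed less in these markers. In heterozygotes the fibroblast sum was 1.37 times wild type, the leukocyte sum 1.18 times, the suprabasal sum 0.701 times and the striated muscle sum 1.40 times. In homozygotes the fibroblast sum was 1.60 times wild type and the leukocyte sum 2.67 times. The suprabasal sum was 0.501 times and the striated muscle sum 1.02 times wild type there. The heterozygote fibroblast and leukocyte sums and the homozygote leukocyte and striated muscle sums overlapped the wild type. Homozygote leukocyte sums ran from 4678 to 17448, against 2631 to 4888 in wild type. Of 8 leukocyte markers 5 were called higher in homozygotes, where 11.8% of all genes were, and none in heterozygotes, where 4.8% were. Ahr, which fell in homozygotes, did so beside the lower suprabasal sum of that group. In adult KEAP1-deficient mice the suprabasal sum was 0.140 of wild type, and Ahr was not called (log2 change -0.23, limma adjusted p = 0.14). The part of suprabasal content in the Ahr result was not tested.

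The rest of the pathway was read from 5 lists of other genes. The receptor complex list holds HSP90, co-chaperones and the kinase SRC. In pups 4 of its 5 genes were called higher in L30F homozygotes and 4 in KEAP1-deficient mice, with none lower, where 22% of all genes were called higher in homozygotes and 26.3% in KEAP1-deficient pups. The median log2 change was 0.34 in homozygotes and 0.57 in KEAP1-deficient pups. Ptges3, which encodes p23, rose 1.30-fold in homozygotes (2685 ± 23.6 normalised counts, against 2063 ± 29.6 in wild type) and 1.71-fold in KEAP1-deficient pups (3541 ± 308). Hsp90ab1, the constitutive HSP90, rose 1.26-fold in homozygotes and 1.54-fold in KEAP1-deficient pups. In adults no gene of the list was called in either L30F group. Of all genes 9.7% were called in adult heterozygotes and 22.3% in adult homozygotes. In KEAP1-deficient adults Ptges3 rose 1.22-fold, while Hsp90ab1 (log2 change -0.26) and Cdc37, another co-chaperone (-0.30), fell.

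Among 11 relatives and coactivators of AHR and ARNT, 8 were called higher in pup L30F homozygotes with none lower, and 9 higher and 1 lower in KEAP1-deficient pups, where 39.2% of all genes were called in homozygotes and 49.5% in KEAP1-deficient pups. The median was 0.50 in homozygotes and 0.65 in KEAP1-deficient pups. Hif1a, the hypoxia-responsive partner of ARNT, rose at both ages. Pups had 2996 ± 55.4 normalised counts in homozygotes and 3924 ± 466 in KEAP1-deficient mice, against 1667 ± 38.3 in wild type (SD, n = 3 each). Adult Hif1a was 4771 ± 1505 in homozygotes and 10946 ± 1375 in KEAP1-deficient mice, against 2365 ± 159 in wild type (SD, n = 4 each). It rose 1.95-fold in homozygotes and 4.61-fold in KEAP1-deficient adults. For KEAP1 deficiency its effect was larger in adults by 0.98 (adjusted p = 0.00014).

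In adults the counts of this list were mixed, at 1 higher and 4 lower in heterozygotes, 2 higher and 1 lower in homozygotes and 3 higher and 4 lower in KEAP1-deficient mice. Of all genes 9.7% were called in heterozygotes, 22.3% in homozygotes and 46.8% in KEAP1-deficient mice. Arnt2, the close relative of Arnt, rose 3.24-fold in KEAP1-deficient adults and fell in KEAP1-deficient pups (log2 change -0.68, adjusted p = 0.021). Ncoa2, a coactivator, rose 1.41-fold in pup homozygotes and fell by 0.47 on the log2 scale in adult KEAP1-deficient mice. Ncoa3, its relative, fell in adult homozygotes (-0.42) and KEAP1-deficient adults (-0.63). Clock rose 1.57-fold in KEAP1-deficient pups. Adult heterozygotes had 2.86-fold more Hif3a and less Arntl, a clock gene (log2 change -2.35, adjusted p = 0.012).

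Of 16 other genes that textbooks list as AHR-responsive, 10 were called higher and 2 lower in pup L30F homozygotes and 13 higher and 2 lower in KEAP1-deficient pups, beside 39.2% of all genes called in homozygotes and 49.5% in KEAP1-deficient pups. The median was 1.45 in homozygotes and 1.68 in KEAP1-deficient pups. Several of them, such as Nqo1, Gsta1 and Aldh3a1, are known NRF2 targets too, so the list does not separate the 2 factors. The list also counts Nfe2l2, the gene that carries the L30F change. Aldh3a1, an aldehyde dehydrogenase, averaged 48082 normalised counts in pup homozygotes and 65796 in KEAP1-deficient pups, against 164 in wild type. In adult KEAP1-deficient mice Aldh3a1 fell to 0.423-fold. Cyp1a2, the liver-type relative of Cyp1a1, had 0 to 1.00 normalised counts in pup homozygotes and 0 to 1.08 in KEAP1-deficient pups, against 6.23 to 33.4 in wild type, and was called lower in both. Lrat, which stores retinol as ester, was called lower in both pup mutants (log2 change -2.33 in homozygotes and -3.12 in KEAP1-deficient pups).

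In adults 15 of these genes were tested, with 4 called higher and 2 lower in heterozygotes, 6 higher and 2 lower in homozygotes and 7 higher and 4 lower in KEAP1-deficient mice, beside 9.7% of all genes in heterozygotes, 22.3% in homozygotes and 46.8% in KEAP1-deficient mice. Nfe2l2 itself was among the genes called lower in each adult mutant group, and Nqo1 among those called higher. The median was -0.14 in heterozygotes, 0.47 in homozygotes and -0.13 in KEAP1-deficient mice. Gsta1, a glutathione transferase whose near-identical copies make its counts uncertain, rose 5.50-fold in heterozygotes, 13.4-fold in homozygotes and 14.2-fold in KEAP1-deficient mice. Cyp2s1, an epithelial P450, fell in all 3 adult mutants, to 2918 ± 829.8 normalised counts in heterozygotes, 2642 ± 369 in homozygotes and 718 ± 92.9 in KEAP1-deficient mice, against 6468 ± 1351 in wild type (SD, n = 4 each). In pups the same gene rose 7.49-fold in homozygotes and 9.82-fold in KEAP1-deficient mice. The adult effect minus the pup effect on Cyp2s1 was -4.18 in homozygotes (adjusted p = 6.6e-13) and -6.45 in KEAP1-deficient mice (adjusted p = 1.2e-16).

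Of 13 enzymes that turn tryptophan into AHR ligands or their precursors, 10 were tested in pups and 9 in adults. In pups 1 was called higher and none lower in L30F homozygotes, and 1 higher and 2 lower in KEAP1-deficient mice, beside 39.2% of all genes in homozygotes and 49.5% in KEAP1-deficient mice, with medians of -0.72 in homozygotes and -0.97 in KEAP1-deficient mice. The higher gene was Kyat1 in both, a kynurenine aminotransferase, with 2145 ± 269.5 normalised counts in homozygotes and 2626 ± 193 in KEAP1-deficient pups, against 269.8 ± 45.7 in wild type (SD, n = 3 each). Afmid (log2 change -0.89) and Ddc (-0.88) fell in KEAP1-deficient pups.

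Adult counts of the tryptophan list were 1 higher and none lower in heterozygotes, 2 higher and 3 lower in homozygotes and 3 higher and 4 lower in KEAP1-deficient mice. All genes were called at 9.7% in heterozygotes, 22.3% in homozygotes and 46.8% in KEAP1-deficient mice. Kyat1 fell in adult KEAP1-deficient mice to 0.379-fold and in homozygotes to 0.618-fold, and its adult effect minus its pup effect was -4.69 for KEAP1 deficiency and -3.69 for L30F homozygosity. Il4i1, an amino acid oxidase of immune cells, rose 2.97-fold in homozygotes and 5.27-fold in KEAP1-deficient adults, in the groups with the highest leukocyte sums. Haao rose 2.20-fold in heterozygotes, 2.97-fold in homozygotes and 3.80-fold in KEAP1-deficient adults, at 16.3 ± 2.95 normalised counts or fewer. Tph1 fell in homozygotes (log2 change -2.62) and Kyat3 in KEAP1-deficient adults to 0.589-fold.

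The 7 differentiation genes that AHR ligands are known to raise in human keratinocytes were mostly higher in the pup mutants, 5 in L30F homozygotes and 6 in KEAP1-deficient mice, with none lower, where 22% of all genes were higher in homozygotes and 26.3% in KEAP1-deficient mice. The median was 3.13 in homozygotes and 3.87 in KEAP1-deficient mice. Ovol1, a transcription factor downstream of AHR in human keratinocytes, rose 5.35-fold in homozygotes and 8.20-fold in KEAP1-deficient pups. In adults none was called in heterozygotes, 3 were lower in homozygotes and 4 in KEAP1-deficient mice, where 10.4% of all genes were called lower in homozygotes and 22.7% in KEAP1-deficient mice. The median in KEAP1-deficient adults was -2.37. Loricrin (Lor) had 2733 ± 1327 normalised counts in KEAP1-deficient adults and 36068 ± 10361 in wild type (SD, n = 4 each), a log2 change of -3.79. Lce3d, one of a family of near-identical genes, is uncertain as a single gene and was called higher in both pup mutants.

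**Figure D5:**
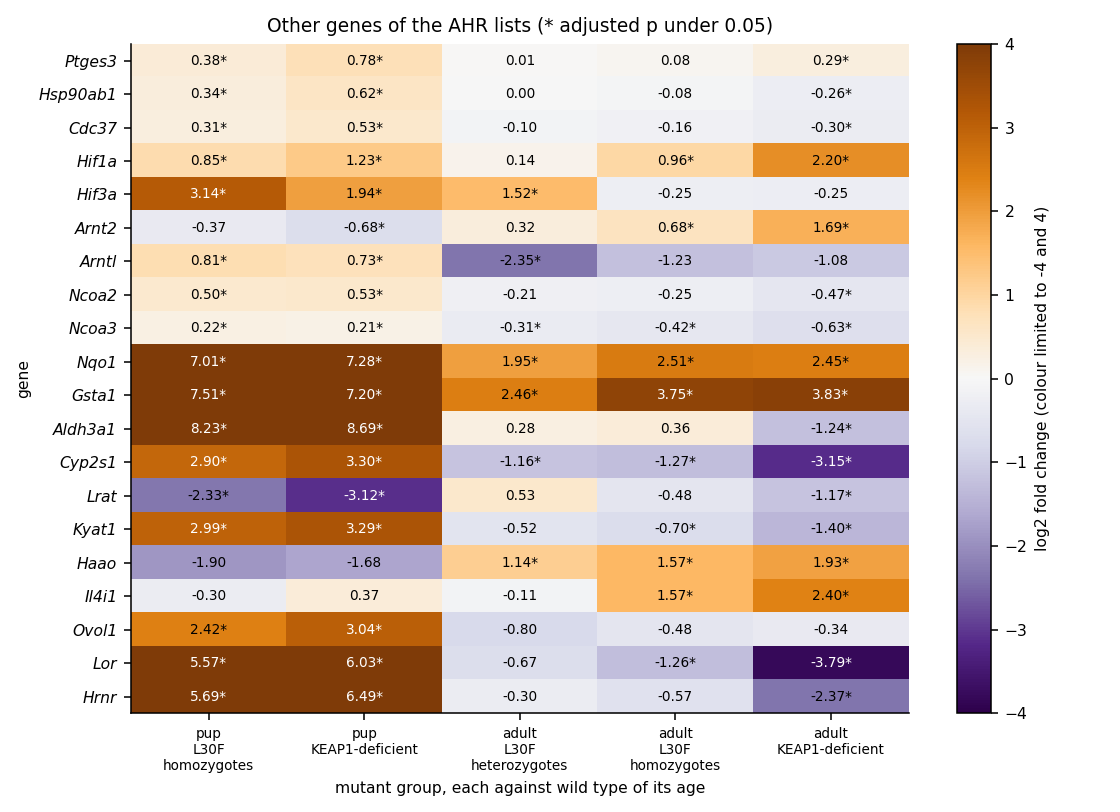
Log2 fold changes over wild type of 20 other genes of the pathway in the 5 mutant groups, with asterisks for an adjusted p under 0.05 and colours limited to 4 on either side of 0. Cyp2s1 and Kyat1 are higher in both pup mutants, and lower in adult KEAP1-deficient mice.

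The genes whose levels most resembled each member were ranked by the lower of Pearson's r over the 9 pup libraries and over the 16 adult libraries, among 17047 genes. The points include the group differences and share their normalisation, so r describes these libraries only. For Ahr they were Jrk (0.747), Gm37786 (0.707) and Gm44045 (0.700), and for Arnt Vezf1 (0.876), Eml5 (0.841) and Gm47102 (0.838). Ahrr came closest to Dzip3 (0.752), Tcf4 (0.751) and Gm29055 (0.7504). Cyp1b1 came closest to Il1r1 (0.877), Rab31 (0.864) and Gm12840 (0.858), and Tiparp to Msmo1 (0.942), Golph3 (0.928) and Atp11b (0.886). Cyp1a1, ranked over the adult libraries alone among 17497 genes, was most like D830024N08Rik (0.907), Tmem70 (0.905) and Inka2 (0.901).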

How the data were processed

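Esophagus RNA of 25 mouse libraries was sequenced. Per the labels' protocols the libraries were made with the MGIEasy RNA Directional kit. Per the submitters' processing notes the reads were quantified with Salmon against GRCm39; no version is stated there. The authors deposited 1 table per experiment of log2 values, normalised separately. The values are log2(count divided by a library factor, plus 4): every value up to 1000 reads came within 0.1 of a whole read (100%), so whole read counts were recovered from the deposited values, and the factors differed from median-of-ratios factors by at most 0.195% in pups and 0.0148% in adults. The lowest CPM of any listed gene in its highest library was 0.509 in pups and 0.502 in adults.

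Normalised counts were tested as log2(normalised count + 1) with limma 3.58.1 (trended and robust, R 4.3.3, statmod 1.5.0), with all groups of an experiment in 1 fit, no replicate block, and genes kept where as many libraries as the smallest group reached 1 normalised count: 21007 genes in pups, 19857 in adults and 19031 in both. All 5 pup members and all 6 adult members passed. P-values were adjusted by Benjamini-Hochberg over all genes tested, with a call at 0.05. A log2 change on this scale understates that of low-count genes. The adult-minus-pup difference of 2 effects was divided by its standard error and tested on degrees of freedom after Welch and Satterthwaite. Of each other list, at most 2 genes called higher and 2 called lower against a wild type, with the smallest adjusted p and no overlap, are named; their values in further groups were chosen after they were seen. Pathway, marker and member lists were chosen with earlier results of these data known; 1 gene of the receptor complex list is not reported here. The scripts were tested on simulated data. Intervals of pooled reads are exact. Replicate numbers were not treated as pairs. Alternatives were other offsets, scaling, filter, depth, covariates, sample sets, limma-voom and leaving out each library.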

Additional observations from a re-analysis of the deposited data

Results flagged for a closer look

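Among 24 groups of 4 adult libraries, 4 held a library far from the other 3, where chance gives about 1 group in 20. Ahr was 725.2 normalised counts in wild-type library 4. Arnt was 1389.8 in L30F homozygote library 1. Ahrr was 60.2 in L30F heterozygote library 2 and 23.96 in KEAP1-deficient library 2.

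Of 10 effects tested, 6 differed between adults and pups by a test of the difference itself, 3 of 5 for each genotype. Of all genes 33.5% were called for L30F homozygosity and 47.1% for KEAP1 deficiency. For L30F homozygotes the adult effect minus the pup effect was -0.46 for Ahr, -1.63 for Cyp1b1 and -1.33 for Tiparp on the log2 scale. For KEAP1 deficiency it was 2.67 for Ahrr, 1.48 for Cyp1b1 and -0.58 for Tiparp.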

How the results depend on the processing

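Over 61 results on single members, 1612 alternative values were computed: 1547 kept their direction and side of the threshold, 53 lost the call, 12 gained one and 0 reversed a called direction. Counts of members called moved by more than 1.5 times under 4 settings with all libraries. Thinning to equal depth gave 1 in adult L30F heterozygotes against wild type, and an offset of 0.1 gave 1 between adult homozygotes and heterozygotes. The replicate block gave 2 in adult L30F homozygotes against wild type. The striated muscle covariate gave 1 in adult KEAP1-deficient mice against wild type, 0 in adult L30F homozygotes against KEAP1-deficient mice, 0 in heterozygotes against KEAP1-deficient mice and 0 for the age difference of KEAP1 deficiency; in that fit muscle and genotype cannot be told apart. Leaving out 1 library, the counts ranged from 1 to 2 in pup L30F homozygotes, 0 to 1 in adult heterozygotes, 1 to 2 in adult homozygotes and 2 to 4 in adult KEAP1-deficient mice, all against wild type. The cause of the other shifts was not tested.

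For deviations of same-numbered libraries from their group means, r ran from -0.129 to 0.281 over 9 pairs in pups. In adults it ran from -0.106 to 0.119 over 24 pairs. Differently numbered libraries gave -0.147 to 0.110 over 18 pairs in pups and -0.18 to 0.204 over 72 pairs in adults. The 0.281, of wild-type and KEAP1-deficient pup libraries 3, lay above all differently numbered pup pairs. The labels give no pairing of these numbers. With the replicate block Tiparp in adult homozygotes (adjusted p = 0.043) and Cyp1a1 in adult homozygotes against KEAP1-deficient mice (adjusted p = 0.045) were called, Arnt in adult KEAP1-deficient mice was not (adjusted p = 0.060), and no other member call changed. The block and the fit of only the groups compared were not run for the age differences. Other calls lost were those of Ahr between adult homozygotes and KEAP1-deficient mice under limma-voom (adjusted p = 0.052), Arnt between heterozygotes and KEAP1-deficient mice with Ddx3y as a covariate (0.076), and the age differences of Cyp1b1 with Ddx3y (0.051 in homozygotes, 0.050 in KEAP1-deficient mice). Depth limits Cyp1a1 and Ahrr, at 0 to 68 reads a library.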

Other observations

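Adult Arntl, a core clock gene whose protein is related to ARNT, was uneven within the wild type. It had 75.5 to 159 normalised counts in L30F heterozygotes, 166 to 488 in L30F homozygotes and 175 to 499 in KEAP1-deficient mice. In wild type it was 890 in library 1, 846 in library 2, 765 in library 3 and 179 in library 4. The labels give no time of day at which tissue was taken.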
